A study of Chlorella sp. with 12 samples.

Results

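The 2 doses of the drought agent PEG-6000 were compared with each other in *Chlorella* sp. TLD6B, a green microalga grown in mineral medium under a cycle of light and darkness. PEG1 cultures held 0.05 g/mL PEG-6000 and PEG2 cultures 0.1 g/mL, both were sampled on day 18, and each group has 2 libraries, so that the comparison rests on 4 of the 12 libraries of the series. The 2 libraries of CK18, the control without PEG-6000 from day 18, are printed beside them, whereas the day-0 control and the NaCl groups were left out. PEG-6000 is a polymer that is too large to enter the cells and lowers the water potential of the medium. All annotated unigenes are members: the assembly, made without a reference genome, lists 155503 unigenes, of which 47032 carry a KEGG orthology identifier (KO). Many unigenes are sequences of 1 gene, so FPKM (mapped fragments relative to the unigene's length and the library's depth) were also summed over the unigenes of each of the 3282 KO. After a filter on low values, 73149 unigenes and 3085 KO sums were tested. The study calls its paired libraries biological replicates, but the labels do not say whether they came from separate cultures, and p-values measure the spread between these libraries, which may be technical.

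Chlorophyll and heme share a plastid pathway that starts from glutamate, runs through the tetrapyrrole ring and divides where magnesium or iron is inserted. The tricarboxylic acid (TCA) cycle oxidises acetyl-CoA in mitochondria, and the glyoxylate cycle uses some of the same acids to build sugars from acetate or from fatty acids. Ribosome biogenesis is the processing of rRNA and the assembly of subunits in the nucleolus, and it is a large cost of growing cells.

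The PEG1 libraries stood apart from the others. All 15 marker KO of a photosynthetic green alga (Rubisco, photosystem, antenna and chlorophyll b genes) were above 0 in each of the 6 libraries. On the log2 scale across unigenes, libraries of PEG2 correlated with those of CK18 at 0.814 to 0.838 and with those of PEG1 at 0.766 to 0.786, libraries of PEG1 with those of CK18 at 0.737 to 0.745, and the pairs within PEG1, PEG2 and CK18 at 0.877, 0.838 and 0.876. These points share libraries and are a description. Between 96935 and 98278 unigenes were above 0 in PEG1, against 78996 to 79627 in PEG2 and 72356 to 78382 in CK18. Depth, estimated from the smallest steps of the FPKM values, was 24500000 and 23900000 mapped fragments in PEG1, 21300000 and 21900000 in PEG2 and 17200000 and 20800000 in CK18. The deposited FPKM were divided by the median ratio of each library to the geometric mean, which for KO sums was 1.29 and 1.37 in PEG1 and 0.905 and 0.911 in PEG2, and the resulting scaled FPKM are the values given in the text unless stated. The study's sequencing statistics put PEG1 replicate 1 in a lower range of base quality than the other libraries. Results without this library are given for all sums, all unigenes and the chlorophyll, antenna, TCA and ribosome biogenesis lists. They are not given beside the other lists or most single genes.

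Between the 2 doses, 254 KO sums were higher and 149 lower in PEG2 than in PEG1, with a Benjamini-Hochberg adjusted p under 0.05 in limma and a log2 fold change of at least 1 in either direction. These are 8.23% and 4.83% of the sums tested (13.1% in either direction), and the median log2 fold change over all sums was -0.06. In the counts below, higher, lower, up-regulated and down-regulated refer to sums or unigenes called by this rule. In all 403 called sums, both libraries of one dose lay above both of the other, which was so in 63.9% of all sums tested, 31.9% in each direction. These are bulk cultures, in which fewer cells of one kind and less RNA per cell cannot be told apart. The mean of CK18 lay nearer to PEG2 than to PEG1 on the log2 scale in 338 of the 403 (83.9%), against 66.9% of all sums tested. Among the sums higher in PEG2, the mean of CK18 was between those of the doses in 138, above both in 111 and below both in 5. Among those lower in PEG2, it was between in 86, below both in 60 and above both in 3. Without scaling the split was 82 higher and 536 lower, and the median over all sums was then -0.60. The count fell to 8 without PEG1 replicate 1 and to 0 without PEG1 replicate 2, in limma, where 643 and 573 sums still had an unadjusted p under 0.05.

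**Figure D1:**
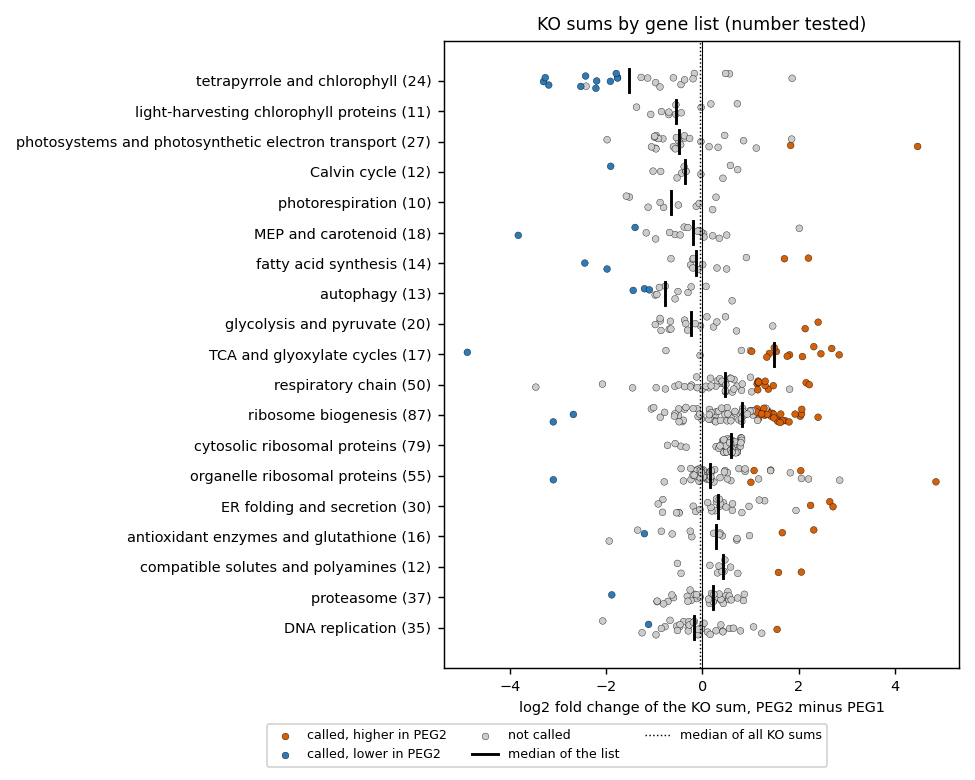
Log2 fold changes of KO sums (PEG2 minus PEG1, horizontal axis) for 19 gene lists, 1 point for each sum tested, with the median of each list as a bar and the median of all sums as a dotted line. Tetrapyrrole and chlorophyll synthesis sits to the left (median -1.52), and the TCA and glyoxylate cycles (1.49) and ribosome biogenesis (0.82) to the right.

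Enzymes of chlorophyll synthesis were lower at the higher dose. Of 24 sums tested in the list of tetrapyrrole and chlorophyll genes, 11 were down-regulated in PEG2 and none was up-regulated. The share was 45.8%, against 4.83% of all sums, and the median log2 fold change was -1.52 against -0.06 over all sums. In 10 of the 11, the mean of CK18 was below both doses, and in all 11 it was nearer to PEG2. One of them, SRP43, came into the list only through an alias and is a chloroplast signal recognition particle protein that delivers antenna proteins to the thylakoid. The other 10 are enzymes or enzyme subunits that lie at several steps of the pathway.

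At the start of the pathway, hemL, the aminomutase that forms 5-aminolevulinate, had 304 and 538 scaled FPKM in PEG1, 33.1 and 148 in PEG2, and 51.9 and 56.2 in CK18. Its log2 fold change was -2.53 ± 0.64 (SE, 2 libraries a group; limma adjusted p = 0.0378). HemC, which joins the pyrrole units into a chain, had 64.5 and 146 in PEG1, 5.62 and 19.7 in PEG2, and 7.17 and 9.78 in CK18, a 9.15-fold difference (log2 fold change -3.19 ± 0.62, adjusted p = 0.0206). The doses did not overlap for either gene, and within each dose replicate 2 was the higher library. Further along, hemE, the uroporphyrinogen decarboxylase, fell by 2.20, the coproporphyrinogen oxidase CPOX by 1.76 and the protoporphyrinogen oxidase PPOX by 1.77 on the log2 scale.

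The magnesium branch showed the same order of groups. ChlI, a subunit of the magnesium chelatase that commits the ring to chlorophyll, had 27.3 and 68.9 scaled FPKM in PEG1, 1.64 and 11.1 in PEG2, and 2.72 and 3.02 in CK18 (log2 fold change -3.30 ± 0.84, adjusted p = 0.0380). The other chelatase subunits chlH and chlD fell by 2.43 and 2.21 on the log2 scale. ChlP, the reductase that supplies the phytol tail, had 164 and 370.4 in PEG1, 10.3 and 63.1 in PEG2, and 20.2 and 25.1 in CK18 (-3.27 ± 0.79, adjusted p = 0.0334). Chlorophyll synthase chlG, which attaches that tail, was the most even between replicates, with 93.0 and 119 in PEG1, 24.7 and 31.5 in PEG2, and 12.3 and 13.4 in CK18 (-1.91 ± 0.26, adjusted p = 0.00924).

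Other members did not pass the test, and the sums named in the next sentences were chosen after their values were seen. The porphobilinogen synthase hemB missed the threshold narrowly, with 69.7 and 128 scaled FPKM in PEG1 and 7.93 and 38.9 in PEG2 (adjusted p = 0.0501). The glutamyl-tRNA reductase hemA, the first regulated enzyme of the pathway, had 115 and 174 in PEG1, 99.0 and 160.4 in PEG2, and 109 and 93.9 in CK18, and its groups overlapped. Ferrochelatase hemH, which inserts iron and opens the heme branch, had 72.6 and 83.4 in PEG1 and 123 and 96.2 in PEG2 (log2 fold change 0.48 ± 0.22, adjusted p = 0.175), and its sign turned without scaling. The middle enzymes chlM and acsF had log2 fold changes of -0.45 and -0.61, and protochlorophyllide reductase por of -1.27 (adjusted p = 0.0823). Divinyl reductase DVR was at 8.72 and 15.9 in PEG1 and 4.85 and 21.7 in PEG2, which overlap and are both below 74.1 and 109.9 in CK18.

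**Figure D2:**
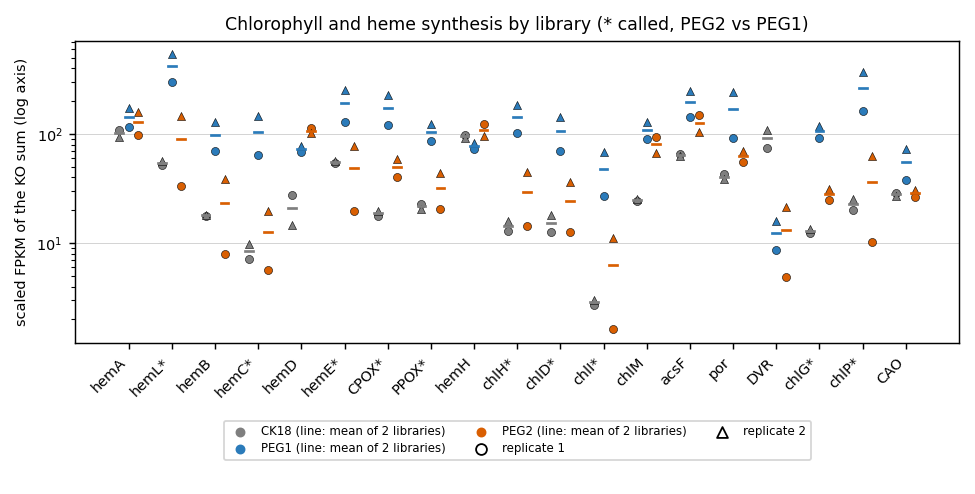
Scaled FPKM (log axis) of 19 KO sums of chlorophyll and heme synthesis in the 6 libraries, with circles for replicate 1, triangles for replicate 2 and lines for the mean of 2 libraries. PEG1 points lie above PEG2 and CK18 for hemL, hemC, chlH, chlD, chlI, chlG and chlP, and replicate 1 is the lower PEG2 library in each of these.

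The call of this list depended on the libraries in the fit. Without PEG1 replicate 1 or 2 no member passed, without either CK18 library or without CK18 altogether 1 did, and without PEG2 replicate 1 or 2 there were 12 or 15. The median of the list stayed between -2.03 and -1.10 when single libraries were left out. Restricted to unigenes whose best database hit is a green alga, 11 of 23 sums were lower.

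No chlorophyll-binding antenna protein passed the test. None of 11 light-harvesting sums was called, and in 10 of the 11 the PEG2 libraries overlapped those of PEG1. The median log2 fold change was -0.55. It was -0.92 without PEG1 replicate 1 and lay between -1.36 and 0.20 without single libraries. LHCB1, the main antenna protein of photosystem II, had 8707 and 12597 scaled FPKM in PEG1, 8724 and 16009 in PEG2, and 10343 and 10053 in CK18. LHCB4, a minor antenna protein and the only member without overlap, had 970 and 1537 in PEG1 and 243 and 917 in PEG2 (-1.37 ± 0.56, adjusted p = 0.131). Within PEG2, replicate 1 was below replicate 2 for both genes. Among 27 sums of photosystems and photosynthetic electron transport, the plastid-encoded psbA and psbB were called higher in PEG2 and none was called lower. This share of 7.41% is near the 8.23% of all sums that were higher. The median of this list was -0.49, between -0.89 and 0.04 without single libraries, and 19 of the 27 log2 fold changes were negative. With FPKM as deposited 1 sum was higher and 1 lower, and with green algal best hits only 1 was higher. PsbA, the D1 reaction centre protein, had only 0.124 and 0.153 scaled FPKM in PEG1 and 10.1 and 2.64 in PEG2 (log2 fold change 4.47 ± 0.72, adjusted p = 0.0128). The most abundant member, the oxygen-evolving protein psbO, had 9169 and 15368 in PEG1 and 3143 and 11884 in PEG2, which overlap. None of the 5 plastid ATP synthase sums passed, and the gamma subunit ATPF1G, the most abundant, had 4106 and 4363 in PEG1 and 3674 and 5382 in PEG2.

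The Calvin cycle and carotenoid lists gave 1 and 2 calls, all lower in PEG2 (8.33% and 11.1%, against 4.83% of all sums). Of 12 Calvin cycle sums, with a median of -0.36, only phosphoribulokinase PRK, which makes the CO2 acceptor, was called, with 823 and 1040 scaled FPKM in PEG1, 175 and 347 in PEG2, and 194 and 166 in CK18 (-1.91 ± 0.33, adjusted p = 0.0148). The small Rubisco subunit rbcS, the most abundant member, had 81895 and 76536 in PEG1, 95548 and 117982 in PEG2 and 65870 and 84004 in CK18 (0.42 ± 0.15, adjusted p = 0.0994), with a sign that turned without scaling. No photorespiration sum of 10 passed, with a median of -0.65, and the phosphoglycolate phosphatase PGP, with the smallest p, had 35.1 and 34.6 in PEG1 and 20.9 and 17.1 in PEG2 (-0.88 ± 0.28, adjusted p = 0.0699). In the list of isoprenoid and carotenoid genes, 2 of 18 were lower in PEG2 and none higher. They were lcyE, the cyclase of the lutein branch, with 4.90 and 11.1 in PEG1 and 0.0987 and 1.30 in PEG2 (-3.83 ± 0.90, adjusted p = 0.0319), and gcpE, of the plastid isoprenoid precursor pathway, with 264 and 378 in PEG1 and 115 and 124 in PEG2 (-1.40 ± 0.24, adjusted p = 0.0147).

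Genes of the TCA and glyoxylate cycles were up-regulated at the higher dose. Of 17 sums tested, 12 were higher in PEG2 (70.6%, against 8.23% of all sums), and the median log2 fold change was 1.49. Among the increases, the steps from 2-oxoglutarate to fumarate and aconitase were the largest. In 10 of the 12, the mean of CK18 lay between those of the doses, and in 9 of the 12 it was nearer to PEG1, unlike the chlorophyll genes.

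The succinyl-CoA synthetase subunit LSC2, which makes a nucleotide triphosphate directly, had 18.0 and 14.2 scaled FPKM in PEG1, 139 and 95.2 in PEG2, and 32.3 and 55.7 in CK18 (2.84 ± 0.34, adjusted p = 0.00873). SDHA, the flavoprotein of succinate dehydrogenase that also feeds the respiratory chain, had 39.5 and 58.0 in PEG1, 262 and 361 in PEG2, and 46.1 and 70.5 in CK18, a 6.43-fold difference (2.68 ± 0.31, adjusted p = 0.00834). Aconitase ACO had 209.7 and 168 in PEG1, 1151 and 928 in PEG2, and 211 and 334 in CK18 (2.46 ± 0.27, adjusted p = 0.00761). For these genes every PEG2 library was above every library of PEG1 and CK18.

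The 2-oxoglutarate dehydrogenase components DLST and OGDH rose by 2.31 and 1.81 on the log2 scale, LSC1 by 2.08, SDHB by 1.76, the malate dehydrogenase MDH1 by 1.53 and citrate synthase CS by 1.34. The most abundant member, the fumarase fumC, rose by 1.02, from 863 and 666 scaled FPKM in PEG1 to 1574 and 1505 in PEG2. The call of fumC was lost with FPKM as deposited (0.47), after quantile normalization (0.65) and with the scaling factors of the unigenes (0.91). It was also lost with all 12 libraries (0.99) and with the highest unigene in place of the sum (0.92). Both enzymes specific to the glyoxylate cycle rose, isocitrate lyase aceA by 1.49 and malate synthase aceB by 1.39, and aceA had 134 and 174 in PEG1, 292 and 629 in PEG2, and 196 and 161 in CK18. Of the members that did not pass, the NADP-type isocitrate dehydrogenase IDH1 had 33.3 and 30.7 in PEG1 and 29.97 and 31.8 in PEG2, and MDH2 and IDH3 had log2 fold changes of 0.81 and 0.99. A class I fumarase, fumA, was the only sum called lower in PEG2: it had 3.71 and 2.19 in PEG1 and is listed at 0 in PEG2 and CK18.

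**Figure D3:**
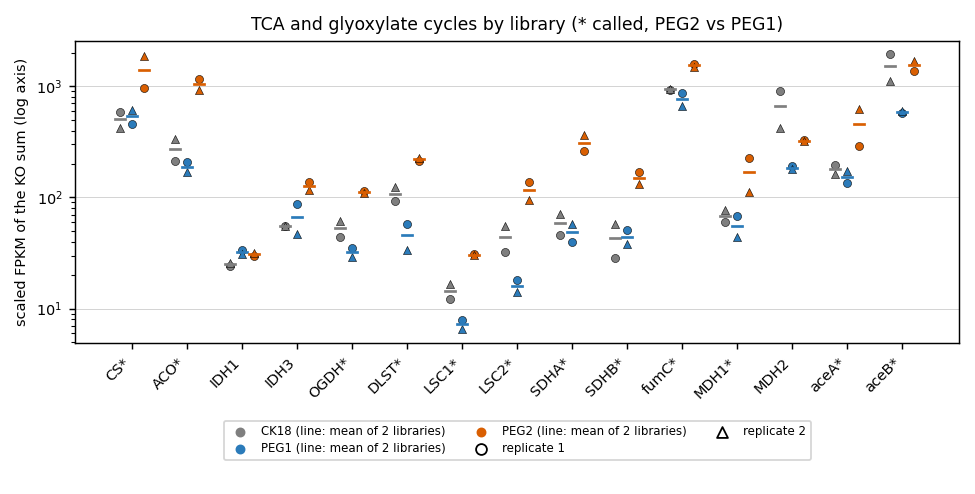
Scaled FPKM (log axis) of 15 KO sums of the TCA and glyoxylate cycles in the 6 libraries, with circles for replicate 1, triangles for replicate 2 and lines for the mean of 2 libraries. PEG2 libraries lie above both PEG1 libraries for each of the 12 called sums, whereas they overlap for IDH1.

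In the glycolysis and pyruvate list, 2 of 20 sums were higher in PEG2 and none lower, a share of 10% near the 8.23% of all sums. They were phosphoenolpyruvate carboxykinase pckA, with 179 and 146 scaled FPKM in PEG1, 842 and 867 in PEG2, and 240.5 and 249.9 in CK18 (5.29-fold, adjusted p = 0.00704), and pyruvate, orthophosphate dikinase ppdK, with 1770 and 1007 in PEG1, 10036 and 3419 in PEG2, and 5229 and 5975 in CK18 (2.13 ± 0.48, adjusted p = 0.0285). The call of ppdK was lost with FPKM as deposited (adjusted p = 0.0508), after quantile normalization (0.0539), with PEG1 and PEG2 only and with the highest unigene. The median of the list was -0.23, and 1 sum was higher and 6 lower with FPKM as deposited and 1 higher and 4 lower after quantile normalization. In fatty acid breakdown, ACAA1 and MFP2 were higher, 2 of 6 tested (33.3%, against 8.23% of all sums), with log2 fold changes of 1.02 and 1.20. Neither was called with FPKM as deposited, after quantile normalization or with the scaling factors of the unigenes. In the respiratory chain, 11 of 50 sums were higher in PEG2 (22%, against 8.23% of all sums) and none lower. The median of this list was 0.47, or -0.08 with FPKM as deposited, where that over all sums was -0.60. The calls fell to 2 with FPKM as deposited and to 4 after quantile normalization. The alternative oxidase AOX1, which passes electrons to oxygen without pumping protons, had 202 and 137 in PEG1, 574 and 1046 in PEG2, and 694 and 1077 in CK18 (2.22 ± 0.36, adjusted p = 0.0128). Assembly factor COX10 rose by 1.47, the ATP synthase subunit ATPeFG by 1.37, and COX6A, the most abundant member, by 1.17. Of these, COX6A lost its call when restricted to unigenes with a green algal best hit, as did MFP2, ACAA1 and fumC (adjusted p = 0.0755 and 0.0834, and log2 fold changes of 0.89 and 0.88).

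Leaving out a PEG1 library removed nearly all of these calls, with 1 TCA sum left without replicate 1 and none without replicate 2. Without any other single library, 9 to 11 TCA sums passed, and the median stayed between 1.25 and 1.66. Without scaling 6 passed and the median was 0.94.

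Part of the nucleolar genes of ribosome biogenesis had lower values in PEG1 than in the other groups, and PEG1 was not tested against CK18. Of 87 sums, 30 were higher in PEG2 than in PEG1 (34.5%, against 8.23% of all sums). The median log2 fold change was 0.82, with 66 sums positive and 21 negative. For all 30, the mean of CK18 was nearer to PEG2, being between the doses for 19 and above both for 11. The list covers box C/D and H/ACA proteins that guide rRNA modification, the small-subunit processome and factors of the large subunit, and each class had members among the 30.

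PES1, which acts in large-subunit assembly, had 21.9 and 30.9 scaled FPKM in PEG1, 147 and 129 in PEG2, and 148 and 124 in CK18 (log2 fold change 2.401 ± 0.25, adjusted p = 0.00739). NOP58, a core box C/D protein, had 115 and 120 in PEG1, 588 and 407 in PEG2, and 710.2 and 596 in CK18 (2.06 ± 0.23, adjusted p = 0.00789). The nuclear exosome exonuclease RRP6 had 30.9 and 36.9 in PEG1, 135 and 147 in PEG2, and 75.4 and 77.2 in CK18 (2.06 ± 0.21, adjusted p = 0.00739). In each of them both PEG2 libraries were above both PEG1 libraries, and CK18 overlapped PEG2 only for PES1. Fibrillarin NOP1, the methyltransferase of the same box C/D particles, rose from 365 and 339 to 1099 and 871, and the H/ACA proteins DKC1, NOP10, GAR1 and NHP2 rose by 1.42, 1.41, 1.31 and 1.29. The most abundant member, the GTPase NOG1, had 759 and 588 in PEG1 and 1209 and 1175 in PEG2, below the fold limit (0.83 ± 0.18, adjusted p = 0.0264). UTP5 and WDR81, both below 4 scaled FPKM and without a unigene whose best hit is a green alga, were the only members called lower in PEG2. The name pattern of the list also took in WD-repeat proteins with other functions.

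Ribosomal proteins themselves differed by less. None of 79 cytosolic sums reached the fold limit, but 56 had an adjusted p under 0.05 with higher values in PEG2, against 12.7% of all sums by this rule (5.25% for lower values, which none had), and the median was 0.58. RP-S16e, with the smallest p, had 21373 and 19561 scaled FPKM in PEG1, 34006 and 33159 in PEG2, and 37551 and 36906 in CK18 (0.72 ± 0.11, adjusted p = 0.0121). RP-L27e, the most abundant, had 40023 and 37388 in PEG1, 54758 and 53380 in PEG2, and 50908 and 59164 in CK18. The direction depended on the scaling, and RP-L27e turned to -0.07 with FPKM as deposited. The median of the list was 0.03 with FPKM as deposited, where that over all sums was -0.60, and 0.03 after quantile normalization, where that over all sums was -0.05. Of 55 organelle ribosomal sums, 5 were higher (9.09%, near the 8.23% of all sums) and 1 lower, and with green algal best hits only 1 of 47 was higher. The largest increase among called sums of at least 10 FPKM was that of RP-L7, with 50.4 and 43.7 in PEG1, 202 and 185 in PEG2, and 152 and 173 in CK18 (2.04 ± 0.20, adjusted p = 0.00739). The ribosome biogenesis calls fell to 9 without scaling, to 0 without either PEG1 library, and lay between 18 and 45 without any other library.

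**Figure D4:**
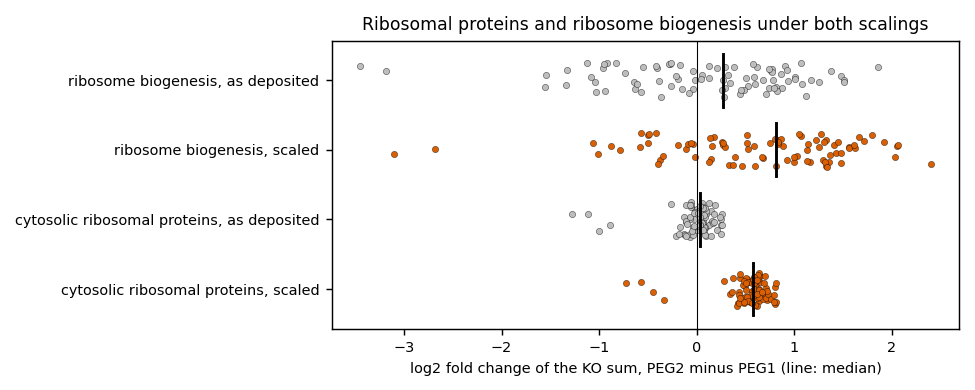
Log2 fold changes (PEG2 minus PEG1) of 79 cytosolic ribosomal protein sums and 87 ribosome biogenesis sums, with scaled values and with FPKM as deposited, and the median of each as a bar. Ribosomal proteins form a narrow cluster at 0.58 with scaling and 0.03 without, and ribosome biogenesis is wider, at 0.82 and 0.27.

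Single genes of protein folding in the endoplasmic reticulum (ER), glutathione and polyamine synthesis were called, in lists whose shares lay near or moderately above the 8.23% of all sums. In the ER list 3 of 30 sums (10%) were higher in PEG2 and none lower, and for all 3 the mean of CK18 was above those of both doses. The libraries of CK18 and PEG2 overlapped for PDIA1 and HSPA5. The disulfide isomerase PDIA1 had 887 and 418 scaled FPKM in PEG1, 6262 and 2537 in PEG2, and 5049 and 4994 in CK18 (2.71 ± 0.47, adjusted p = 0.0150). The ER chaperone HSPA5 (BiP) had 59.0 and 46.7 in PEG1, 579 and 186 in PEG2, and 532 and 678 in CK18 (2.64 ± 0.48, adjusted p = 0.0177), and the lectin chaperone calnexin CANX rose by 2.25. PEG2 replicate 1 was the higher library of its pair for all 3. Of 43 sums in the chaperone list, which holds HSPA5 too, the organelle-type dnaK and its exchange factor GRPE were the other members higher in PEG2, by 1.78 and 1.64, and 4 were lower, each of these below 10 FPKM, and 2 of the 4 entered by an alias and are not chaperones.

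Among 16 antioxidant sums, 2 were higher (12.5%) and 1 lower. The glutamate-cysteine ligase gshA, the first step of glutathione synthesis, had 37.6 and 36.3 scaled FPKM in PEG1, 131 and 257 in PEG2, and 635 and 481 in CK18 (2.31 ± 0.33, adjusted p = 0.0110). Catalase katE rose by 1.66. Glutathione reductase GSR was the only member called lower in PEG2, with 49.1 and 58.5 in PEG1 and 18.3 and 29.3 in PEG2 (-1.21 ± 0.30, adjusted p = 0.0360). The abundant thioredoxin trxA did not pass, with 569 and 688 in PEG1 and 576 and 499 in PEG2. In the list of compatible solutes and polyamines, 2 of 12 were higher (16.7%) and none lower. Ornithine decarboxylase ODC1, which makes putrescine, had 270.1 and 329 in PEG1, 660.1 and 2316 in PEG2, and 1447 and 1159 in CK18 (2.05 ± 0.51, adjusted p = 0.0368). INO1, the inositol phosphate synthase, had 190 and 183 in PEG1, 421 and 737 in PEG2, and 772 and 741 in CK18 (1.58 ± 0.27, adjusted p = 0.0145). For these genes PEG1 was the lowest group.

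The nitrogen, sulfur and starch lists gave 1 call each, shares of 10%, 7.69% and 11.1% near the 8.23% of all sums that were higher. The glutamate synthase GLT1 was the 1 of 10 nitrogen sums that rose, with 33.3 and 26.4 scaled FPKM in PEG1, 191 and 158 in PEG2, and 52.1 and 91.4 in CK18 (2.55 ± 0.31, adjusted p = 0.00923). Glutamine synthetase glnA, the most abundant member, had 1510 and 1298 in PEG1 and 891 and 3005 in PEG2, which overlap. Sulfite reductase sir rose by 1.30, 1 of 13 in its list, and glgC, which makes the ADP-glucose for starch, by 1.02, 1 of 9. The call of glgC was lost with green algal best hits only (0.88), with FPKM as deposited (0.48), after quantile normalization (0.62), with the scaling factors of the unigenes (0.91) and with all 12 libraries (0.99). In fatty acid synthesis, 2 of 14 sums were higher and 2 lower (14.3% each, against 8.23% and 4.83% of all sums). None was higher with green algal best hits only, with FPKM as deposited or with the scaling factors of the unigenes. In these fits 2 or 3 were lower, and after quantile normalization 2 were higher and 2 lower. The biotin carboxylase accC, a subunit of the plastid enzyme for the first committed step, had 51.2 and 81.6 in PEG1, 8.31 and 16.7 in PEG2, and 43.5 and 19.8 in CK18 (-2.44 ± 0.49, adjusted p = 0.0214), and the condensing enzyme fabF fell by 1.98. The desaturase FAD2, the most abundant member, had 240.7 and 230 in PEG1 and 417 and 469 in PEG2, below the fold limit (0.91 ± 0.18, adjusted p = 0.0203). Galactolipid synthase E2.4.1.46 fell by 1.08 and was the only one of 15 glycerolipid sums called.

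Autophagy had the largest share of decreases among the lists of growth and turnover. In this list 3 of 13 sums were lower in PEG2 (23.1%, against 4.83% of all sums) and none higher, with a median of -0.77. ATG9, the membrane scramblase, had 71.8 and 60.3 scaled FPKM in PEG1, 26.4 and 35.4 in PEG2, and 15.4 and 17.6 in CK18 (-1.10 ± 0.26, adjusted p = 0.0319), ATG16L fell by 1.21, and ATG5, which was under 10 FPKM, by 1.44. GABARAP, the ATG8-type protein that coats the autophagosome, had 366 and 403 in PEG1 and 367 and 445 in PEG2, which overlap. In DNA replication the ribonucleotide reductase subunit RRM2 rose by 1.55 and the helicase subunit MCM7 fell by 1.12, 1 each of 35. In the cell cycle list, of 30 sums SMC4 rose by 1.82 and cyclin B (CCNB) fell by 1.14, with 3 lower in all (10%). Of 37 proteasome sums, PSMA2 fell by 1.88, a sum that was 0.35 when restricted to unigenes with a green algal best hit. Of 53 spliceosome sums 1 rose and 1 fell, and of 32 in DNA repair likewise, with PMS2 higher by 1.81. No DNA repair sum was higher with green algal best hits only. The DNA replication, spliceosome and DNA repair lists had 1.89% to 3.13% called in each direction, below the 8.23% and 4.83% of all sums. The 2.70% of proteasome sums called lower was also below the share of all sums. None of 21 aminoacyl-tRNA synthetases, 12 proton pump subunits or 4 histones was called. The leucyl-tRNA synthetase LARS missed only the fold limit, with 137 and 157 in PEG1 and 70.7 and 84.7 in PEG2 (-0.92 ± 0.23, adjusted p = 0.0362).

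Outside the lists, the largest KO increases were of varied function. ECM29, a proteasome-associated protein, had 7.99 and 8.56 scaled FPKM in PEG1, 337 and 42.4 in PEG2, and 143 and 221 in CK18 (3.84 ± 0.83, adjusted p = 0.0257), and PEG2 replicate 1 was far above replicate 2. The ribosome assembly factor BRX1, which the name pattern of the list had missed, rose by 3.58, and dapF, of lysine synthesis, by 3.27. 6-phosphogluconate dehydrogenase PGD, which makes NADPH in the pentose phosphate pathway, had 12.9 and 7.58 in PEG1, 75.1 and 102 in PEG2, and 111 and 114 in CK18 (3.13 ± 0.31, adjusted p = 0.00739). UPF3, of nonsense-mediated mRNA decay, rose by 3.01, from 68.0 and 61.1 to 503 and 539. The quinone reductase wrbA had 67.3 and 57.8 in PEG1, 363 and 588 in PEG2, and 1259 and 1466 in CK18 (2.89 ± 0.26, adjusted p = 0.00704). DDX20, an RNA helicase, rose by 2.72 and SND1, an RNA-binding nuclease, by 2.69. Of the largest decreases not yet named, SNRPF, a spliceosomal Sm protein, fell by 3.85, from 7.03 and 16.6 to 0.373 and 1.11. ACHE, annotated as acetylcholinesterase, fell by 2.95 and has 1 unigene of 25 with a green algal best hit. DHX57, an RNA helicase, fell by 2.65 and ftsY, a signal recognition particle receptor, by 2.57.

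At the level of single unigenes, 1413 were higher (1.93%) and 4359 lower (5.96%) in PEG2, 5772 in all (7.89%), with a smallest adjusted p of 0.0305. These calls were the least stable values: leaving out any one of the 6 libraries removed every call in limma, although 4754 to 17290 unigenes then had an unadjusted p under 0.05. The called unigenes were low, with a median of 1.43 FPKM in the higher group, and of the 1008 with at least 10 FPKM there 738 were higher and 270 lower in PEG2. Of 40249 unigenes tested with a green alga as best hit in the NR protein database, 839 were higher and 971 lower (2.41%). Of 21665 without a hit, 452 were higher and 1837 lower (8.48%), and of 11221 with a best hit in another organism 122 were higher and 1550 lower (13.8%). Land plants, oomycetes, cryptophytes, red algae, brown algae and haptophytes are among these other organisms.

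Unigenes above 0 were more numerous in PEG1 than in PEG2 whatever their best hit. Those with best hits outside green algae made 2.47% and 2.46% of the summed deposited FPKM in PEG1, 1.91% and 1.87% in PEG2, and 2.08% and 1.99% in CK18, and 18360 and 18887 of them were above 0 in PEG1 against 12550 and 13546 in PEG2. With green algal best hits, 51683 and 52281 were above 0 in PEG1 against 46327 and 45449 in PEG2, and without a hit 26872 and 27084 against 20103 and 20613. In 1718 unigenes both PEG1 libraries had at least 1 FPKM and both PEG2 libraries 0. Of these, 568 had best hits outside green algae, 335 had green algal best hits and 814 had no hit. In CK18 too, 552 of the 568, 199 of the 335 and 676 of the 814 are listed at 0. The reverse pattern had 273 unigenes, 25 of them with best hits outside green algae, 109 with green algal best hits and 139 without a hit. Of the unigene decreases the largest was Cluster-31803.113486, a fragment with a best hit to actin of a cryptophyte. It had 607 and 215 scaled FPKM in PEG1 and is listed at 0 in PEG2 and CK18. Of the 6 unigenes with the largest decrease, 5 are actin fragments and 1 (Cluster-2843.0) is ribosomal protein L39, and all 6 are listed at 0 in PEG2 and CK18. In the KO sum of actin (ACTF), the 88 unigenes with other best hits had 2089 and 1154 deposited FPKM in PEG1 against 314 and 298 in PEG2, and the 34 with green algal hits 667 and 446 against 278 and 306. Whether these sequences come from other organisms in the PEG1 cultures was not tested. Among KO sums restricted to green algal best hits, 193 were higher and 97 lower of 2690.

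**Figure D5:**
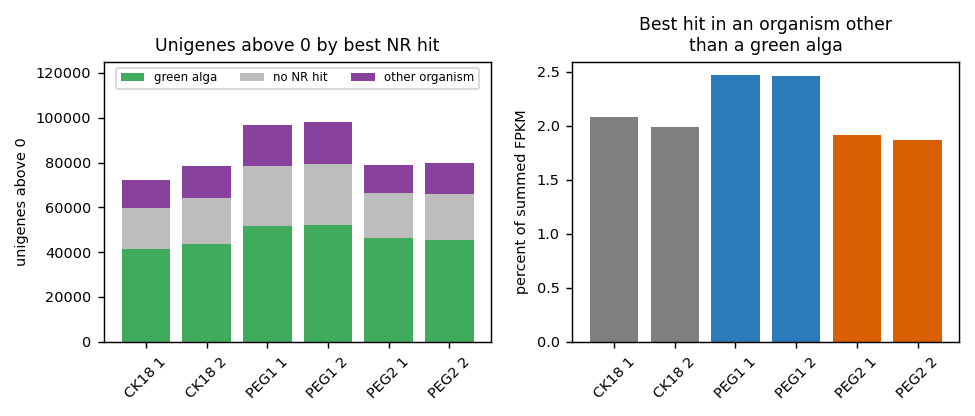
Left, unigenes above 0 FPKM in each of the 6 libraries, stacked by the organism of the best NR hit. Right, the percent of summed FPKM from unigenes whose best hit is an organism other than a green alga, which is 2.47 and 2.46 in PEG1 and 1.91 and 1.87 in PEG2.

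The largest unigene increases had green algal best hits. Cluster-31803.87358, annotated as hydroxylamine reductase, had 0 and 1.13 scaled FPKM in PEG1, 368 and 411 in PEG2, and 448 and 916 in CK18 (limma adjusted p = 0.0305). Cluster-31803.58815, a glutamate-cysteine ligase, is listed at 0 in both PEG1 libraries and had 20.5 and 76.0 in PEG2 and 246 and 205 in CK18. Cluster-31803.59440, a homolog of the copper chaperone SCO1, is also listed at 0 in PEG1, with 28.9 and 19.7 in PEG2 and 46.3 and 48.4 in CK18. An isocitrate lyase fragment, Cluster-31803.16520, had 22.8 and 29.6 in PEG2 and is listed at 0 in PEG1 and CK18. Cluster-31803.29712, an iron and manganese transporter, and Cluster-31803.58080, a heat shock protein of the HSP90 family with 26.95 and 29.4 in PEG2 and 2.94 and 0.740 in CK18, were the others.

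The 8 lists built from SwissProt descriptions had 0% to 3.81% of their unigenes called higher and 0% to 12.5% called lower. Over all unigenes tested these shares were 1.93% and 5.96%. Of 519 unigenes of signalling kinases and phosphatases 7 were higher and 28 lower, and the 3 largest called increases with at least 10 FPKM were those of type 2C protein phosphatases, a family that in land plants acts in abscisic acid signalling. Cluster-31803.61260 had 945 and 919 scaled FPKM in PEG1, 2222 and 2535 in PEG2, and 2487 and 2980 in CK18 (1.35 ± 0.18, adjusted p = 0.0305). Cluster-31803.57799 and Cluster-31803.62597, of the same family, rose by 1.37 and 1.25. Another, Cluster-31803.42511, whose best hit is a land plant, moved the other way, with 53.3 and 35.5 in PEG1, 0.176 and 0.808 in PEG2, and 199 and 161 in CK18 (-6.44 ± 0.62, adjusted p = 0.0305). Of 160 transcription factor unigenes 3 were higher and 1 lower. The higher ones were an AP2/ERF-type factor, Cluster-31803.68756, with 7.63 and 8.16 in PEG1, 42.8 and 48.2 in PEG2, and 27.2 and 27.5 in CK18 (2.51 ± 0.23, adjusted p = 0.0305), and the squamosa promoter-binding factors Cluster-31803.83127 and Cluster-31803.57502, which rose by 2.24 and 2.09. In the cell wall list 4 of 105 were higher and 6 lower, with a median of 0.03. The largest increase with at least 10 FPKM was that of Cluster-31803.55196, a chitin synthase, with 7.25 and 2.12 in PEG1, 63.3 and 186 in PEG2, and 266 and 192 in CK18 (4.75 ± 0.76, adjusted p = 0.0320). Of 110 unigenes of purple acid phosphatases and phosphate transporters 2 were higher and 6 lower, with a median of 0.19. The called increase with at least 10 FPKM, Cluster-31803.60098, annotated as a probable inactive purple acid phosphatase, had 41.7 and 26.1 in PEG1, 160 and 117 in PEG2, and 276 and 272 in CK18 (2.05 ± 0.31, adjusted p = 0.0311). Of 8 unigenes of late embryogenesis and early light-induced proteins 1 was lower, and of 49 aquaporin and mechanosensitive channel unigenes 1 was higher and 1 lower. Of 98 sodium and potassium transporter unigenes 2 were higher and 3 lower, and of 38 in the list meant for iron uptake 1 was higher. The name pattern of this last list also matched the word transferring in enzyme names. Its highest member, Cluster-31803.57280, is annotated as a pyruvate dehydrogenase kinase, so its counts are not those of iron uptake genes alone.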

How the data were processed

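RNA of CK18, PEG1 and PEG2 was sequenced by the authors, assembled with Trinity, clustered into unigenes with Corset, aligned with Bowtie 2 and counted with RSEM. The authors deposited FPKM with 2 decimals and an annotation table. Values were analysed in R 4.3.3 with limma 3.58.1. FPKM, or their sums by KO, were divided by the median ratio of the library to the geometric mean, 0.1 was added and log2 was taken, so fold changes of low genes are understated. Features with FPKM of at least 0.3 in at least 2 of 6 libraries were fitted with the 3 groups together (3 residual degrees of freedom, intensity trend, two-sided, Benjamini-Hochberg). Depth was estimated from FPKM steps in unigenes of equal length, where 62.6% to 79.8% of low values were within 0.1 of whole fragments, so no count test was run. The fit was tested on simulated data.

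The members and the 40 gene lists were chosen with earlier results of these data known. Named are the 10 KO sums and 6 unigenes with the largest change in each direction, among those called with at least 10 FPKM and no overlap, and in each list up to 3 called members in each direction, the highest member and, with none called, the one with the smallest p. Not every highest member without a call is printed. Other names were chosen after their values were seen. List counts are given without a set test. Pseudocounts, filters, scaling, samples, thresholds, the replicate block and single libraries were varied. Annotation is the authors' best hit, green algal genera were listed by hand, some after values were seen, and no sequence or coordinate was used.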

Additional observations from a re-analysis of the deposited data

How the results depend on the processing

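Of 403 KO sums called, the count was 618 with FPKM as deposited, 188 with PEG1 and PEG2 only, 49 at an adjusted p under 0.01 and 258 with the highest unigene in place of the sum, and 0 to 787 without single libraries. The 5772 unigene calls became 390 with a mean FPKM of at least 1, 1338 after quantile normalization and 2 with green algal best hits only, an alternative chosen after seeing the data. They became 0 in limma with a pseudocount of 1, without a filter, with PEG1 and PEG2 only, at an adjusted p under 0.01 and without any one library, and in these fits 4754 to 21179 unigenes had an unadjusted p under 0.05. Replicate numbers did not pair the libraries, since the differences between replicates of 2 groups correlated at 0.00682 to 0.0572. With the replicate number as a block, 400 KO sums and 0 unigenes were called, and 15642 unigenes had an unadjusted p under 0.05. These limits come with 2 libraries a group, and FPKM carry no counting error.

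Signs turned with green algal best hits only for PSMA2 (0.35), IDH1 (0.33), ATPF1G (-0.07) and GABARAP (-0.05), and with the highest unigene for IDH1 (1.01) and ATPF1G (-0.02). With FPKM as deposited they turned for LHCB1 (-0.37), hemH (-0.07), rbcS (-0.13), RP-L27e (-0.07), ATPF1G (-0.48), GABARAP (-0.48) and glnA (-0.32), and with the scaling factors of the unigenes for ATPF1G (-0.04) and GABARAP (-0.04). After quantile normalization they turned for LHCB1 (-0.43), rbcS (-0.18), RP-L27e (-0.06), DVR (0.04), ATPF1G (-0.52), GABARAP (-0.47) and glnA (-0.01). Without single libraries the ranges crossed 0 for LHCB1 (-0.26 to 0.60), hemA (-0.51 to 0.16), DVR (-1.26 to 0.86), IDH1 (-0.09 to 0.03), ATPF1G (-0.20 to 0.33), GABARAP (-0.06 to 0.20) and glnA (-0.64 to 1.09). Of these only PSMA2 had passed both thresholds. The cause was not tested. Of the other values of single genes and list counts, 2079 kept their side of the threshold, 1107 were weaker and 106 stronger.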

Other observations

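Groups of KO sums outside the lists, chosen after their values were seen, also differed between the doses. Over all sums tested, 8.23% were higher in PEG2 and 4.83% lower. Counts of these groups with other scalings or without single libraries are not given. Of 34 sums of mitochondrial protein import and mitochondrial carriers, 16 were higher in PEG2 and none lower, with a median log2 fold change of 0.88 against -0.06 over all sums. The import channel protein TIM50 had 28.8 and 16.2 scaled FPKM in PEG1, 93.7 and 57.4 in PEG2, and 37.5 and 43.2 in CK18 (1.76 ± 0.36, limma adjusted p = 0.0223). PMPCB, a subunit of the peptidase that removes targeting sequences, had 524 and 451 in PEG1, 1411 and 1024 in PEG2, and 686 and 850.4 in CK18 (1.31 ± 0.22, adjusted p = 0.0140). The inner membrane scaffolds PHB1 and PHB2 rose by 1.13 and 1.29. With green algal best hits only, the mitochondrial sums SLC25A23S (0.88), TIM22 (0.98) and SLC25A27 (limma adjusted p = 0.0506) lost their calls. Acetyl-CoA synthetase ACSS, which activates acetate, had 2088 and 3984 in PEG1, 9198 and 14295 in PEG2, and 1553 and 2159 in CK18 (1.99 ± 0.35, adjusted p = 0.0154).

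Of 20 sums of nucleotide synthesis and salvage, 7 were higher in PEG2 and none lower, with a median of 0.71. UMPS, the last enzymes of UMP synthesis in 1 protein, had 30.7 and 40.2 scaled FPKM in PEG1, 182 and 120.4 in PEG2, and 134 and 128 in CK18 (2.07 ± 0.27, adjusted p = 0.00923). PurB, of purine synthesis, rose by 2.04, hprT, of purine salvage, by 1.71 and purF, the first committed purine step, by 1.63. Of 5 protein arginine methyltransferases 3 were higher, and PRMT1 had 114 and 111 in PEG1, 399.5 and 339 in PEG2, and 430 and 317 in CK18 (1.71 ± 0.22, adjusted p = 0.00923). Of 6 RNA polymerase I sums 2 were higher, RPA12 by 1.90 and RPA2 by 1.20. With green algal best hits only, the nucleotide synthesis sum PRPS (0.93) and the methyltransferase PRMT3 (limma adjusted p = 0.0642) lost their calls.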
